A study of Homo sapiens with 6 samples.

Results

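The 10 genes described here encode carriers that move amino acids across the plasma membrane: SLC7A5, SLC3A2, SLC1A5, SLC1A4, SLC7A1, SLC7A2, SLC7A6, SLC38A1, SLC38A2 and SLC43A1. They were taken by symbol from a deposited table of 58825 genes, and each matched 1 gene. RNA came from PC9, an established human lung adenocarcinoma line with an activating EGFR mutation, in which FOXM1, a forkhead transcription factor of the mitotic programme, was overexpressed as the rs3742076_A or the rs3742076_G allele. Each allele had 3 libraries, and the cells of all 6 libraries had received 100 nM gefitinib, an EGFR inhibitor, for 24 h. No library without FOXM1 overexpression or without gefitinib was analysed here, so what all 6 share has no control. Whether replicates came from separate cultures is not in the labels, so a p-value here reflects the spread among these libraries alone, and that spread could be technical.

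Cells take up essential and nonessential amino acids through several families of solute carriers that divide the substrates between them. SLC7A5 and SLC7A6 are light chains that carry the substrate and reach the membrane only when joined to the heavy chain SLC3A2. SLC1A5 and SLC1A4 exchange small neutral amino acids, SLC38A1 and SLC38A2 take up glutamine and other neutral amino acids together with sodium, SLC7A1 and SLC7A2 carry arginine and lysine, and SLC43A1 lets branched-chain amino acids pass. In carcinoma cells SLC7A5, SLC3A2 and SLC1A5 are often abundant, and their uptake feeds the amino acid sensing of the growth kinase complex mTORC1. Several of these genes are known targets of ATF4, the transcription factor made when amino acids run short.

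The values are FPKM, a fragment count corrected for transcript length and library depth, so that levels can be set side by side between genes of different length. The libraries held an estimated 19760000 to 23320000 read pairs, and 12451 to 12858 genes reached 1 FPKM in each. FOXM1 was at 25.5, 10.5 and 10.1 FPKM in A replicates 1 to 3 and at 14.6, 14.3 and 13.96 FPKM in G replicates 1 to 3. On the leading principal component of the tested genes, A replicate 1 (0.44) fell between the other A libraries (-20.9 and -15.2) and the G libraries (8.67 to 14.8). All 7 carcinoma epithelial markers reached 1 FPKM in at least 1 library, while 0 of 4 lung lineage markers (NKX2-1, NAPSA, SFTPB, SFTPC) reached it in any library. Of the markers of other cell types, 2 of 6 for leukocytes, 1 of 6 for fibroblasts and 0 of 5 for endothelium reached it. The summed levels of each marker list overlapped between the alleles. By their log2 change 3 of the 7 epithelial markers were higher in G and 4 lower, where 55.1% of all tested genes were higher. All G libraries lay below all A libraries for 3 of the 7, the keratins KRT7, KRT8 and KRT18. Of these keratins 2 had an unadjusted limma p under 0.05 and 0 were called. Of all tested genes, 9.57% had all G libraries below all A libraries, 6.82% were lower in G at an unadjusted p under 0.05, and 0.109% were called. The part of these markers in the results was not tested.

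The genes fell into an abundant and a scarce set. In FPKM, SLC7A5 had the highest mean over the 6 libraries, at 110.2, followed by SLC1A5 at 51.2, SLC3A2 at 30.4, SLC38A2 at 20.7, SLC38A1 at 17.5, SLC7A1 at 7.896 and SLC7A6 at 5.69. SLC43A1, SLC7A2 and SLC1A4 came last, at 0.73, 0.68 and 0.58 FPKM. SLC38A2 was above SLC38A1 in each of the 6 libraries although their ranges overlapped, and the ranges of SLC7A1 and SLC7A6 overlapped through a single library. Among the 3 scarce genes each neighbouring pair overlapped. SLC43A1 was above SLC7A2 in 3 of the 6 libraries, and SLC7A2 above SLC1A4 in 5. Between the outer 2, SLC43A1 was above SLC1A4 in each of the 6 libraries. All other neighbours in the order had ranges that did not overlap. The 10 genes summed to 216.0 to 251.8 FPKM in A libraries and 248.6 to 256.8 FPKM in G libraries, and SLC7A5 alone made up 41.1% to 47.1% of that sum.

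**Figure D1:**
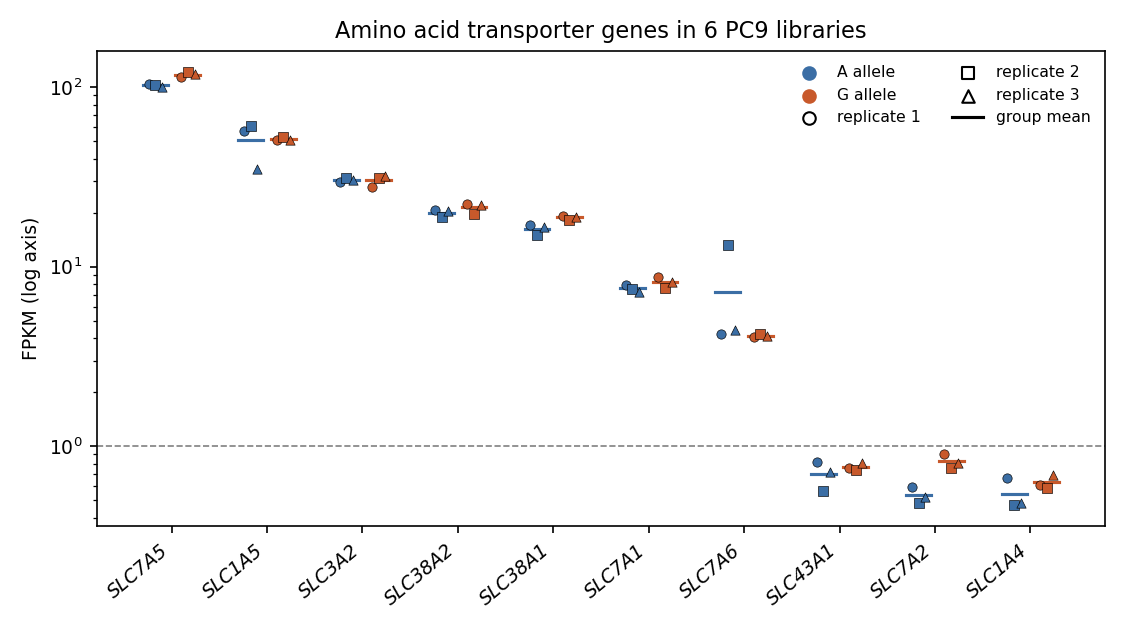
FPKM of each gene (log axis) in the 6 libraries, with genes ordered by mean level, symbols for the replicates and bars for the group means; the dashed line marks 1 FPKM. The G libraries lie above the A libraries without overlap for SLC7A5, SLC38A1 and SLC7A2, while A replicate 2 of SLC7A6 (13.1 FPKM) and A replicate 3 of SLC1A5 (35.0 FPKM) stand apart from the other libraries.

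For the comparison of G with A, values were taken as log2(FPKM + 1) and tested with limma over the 12787 genes that reached 1 FPKM in 3 or more libraries. A gene was called where its p, adjusted over these genes after Benjamini and Hochberg, was under 0.05. On this scale the change of low genes is understated. Of the 10 genes 7 passed that filter, and 0 of the 7 were called, where 0.109% of all tested genes were called. Calls over all genes split into 4 higher and 10 lower in G, or 7 and 8 with equal sums of FPKM per library and 1 and 8 with median-ratio factors. The FPKM of all genes summed to 270219 to 277596 in A libraries and to 253706 to 255269 in G libraries. Equal sums thus raise G against A, and which scale is right was not tested. At an unadjusted p under 0.05, 2 of the 7 passed, both higher in G, where 10.5% of all tested genes passed in that direction. Log2 changes were positive in 5 of 7, with a median of 0.10, against 55.1% positive and a median of 0.02 over all tested genes. All G libraries lay above all A libraries for 2 of the 7, where 15.4% of tested genes did so, and below them for 0 of the 7, where 9.57% did. In bulk RNA, fewer cells of a kind and less RNA per cell cannot be told apart.

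**Figure D2:**
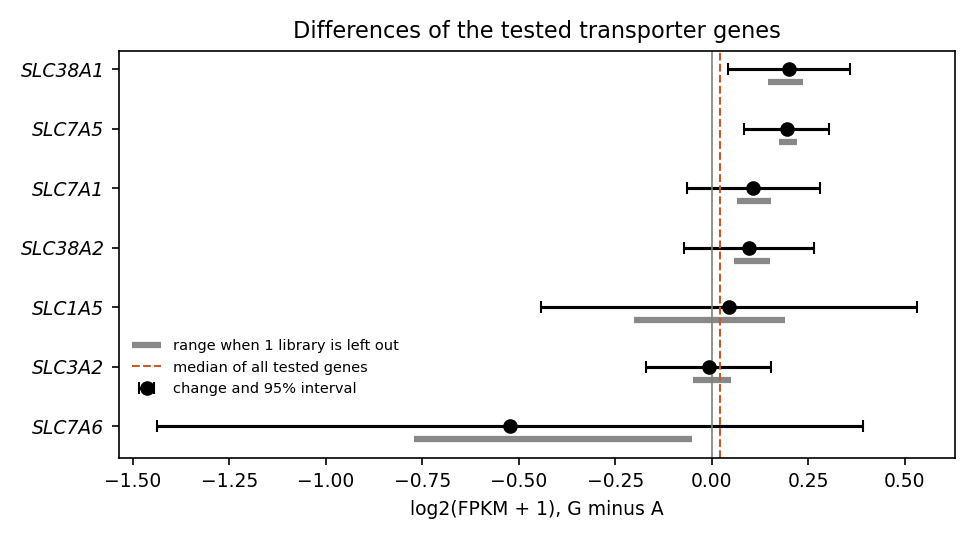
Difference of G minus A in log2(FPKM + 1) for the 7 tested genes, with 95% intervals from limma (black), the range over the 6 fits that each leave out 1 library (grey bars) and the median of all tested genes (dashed). SLC38A1 (0.20) and SLC7A5 (0.19) have the highest values and the intervals that lie above 0, and the wide intervals belong to SLC7A6 and SLC1A5.

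SLC7A5, also called LAT1, is the light chain that imports leucine and other large neutral amino acids in exchange for glutamine. The RefSeq window before its start site (GRCh38.p14, chr16:87869508-87869757, minus strand) is shown because this was the most abundant of the 10 transcripts and the annotated start of its main deposited transcript, ENST00000261622, is the RefSeq start. It is written 5′ to 3′ in the direction of transcription, and the capitals mark the E-box CACGTG, the motif of MYC and related factors, at positions -130 to -125 from the start.
SLC7A5 upstream: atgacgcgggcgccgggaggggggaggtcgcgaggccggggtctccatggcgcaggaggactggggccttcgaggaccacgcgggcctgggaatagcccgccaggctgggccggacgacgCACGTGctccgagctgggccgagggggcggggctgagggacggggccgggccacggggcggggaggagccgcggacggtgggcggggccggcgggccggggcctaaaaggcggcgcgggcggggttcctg

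SLC7A5 (ENSG00000103257, chromosome 16, 87830023 to 87869507, minus strand) was at 104.6, 103.4 and 100.2 FPKM in A replicates 1 to 3. In G replicates 1 to 3 it was at 113.5, 121.0 and 118.5 FPKM. The lowest G library was thus above the highest A library. The means were 102.7 ± 2.31 and 117.7 ± 3.81 FPKM (SD, n = 3), a ratio of 1.15. On the log2 scale the change was 0.19 ± 0.046 (SE) with a 95% interval of 0.08 to 0.30, and the limma adjusted p was 0.184. That p ranged from 0.080 to 0.40 over the 16 other settings. Each library held 9429 to 13170 read-pair equivalents of this gene. One of its 3 listed transcripts, ENST00000261622, carried 99.8% or more of the summed transcript FPKM in each library, with its lowest share in G replicate 3. The near-identical copies SLC7A5P1 and SLC7A5P2 were at most at 0.63 and 0.87 FPKM.

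SLC3A2, also called CD98 or 4F2hc, is the heavy chain that anchors these light chains in the membrane. Its gene is on chromosome 11 (ENSG00000168003, 62856102 to 62888875, plus strand). Its levels were 29.5, 31.4 and 30.5 FPKM in A replicates 1 to 3 and 27.8, 31.1 and 32.04 FPKM in G replicates 1 to 3. The G range enclosed the A range. G minus A was -0.01 ± 0.067 (SE) in log2, and its 95% interval of -0.17 to 0.15 leaves room for a change of that size in either direction (limma adjusted p = 0.96). The sign turned to 0.10 with equal sums per library, a setting in which the median of all genes was 0.11.

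The light chain and the heavy chain can also be compared within a library, where scaling between libraries has no part. The FPKM ratio of SLC7A5 to SLC3A2 was 3.55, 3.30 and 3.29 in A replicates 1 to 3 and 4.08, 3.89 and 3.70 in G replicates 1 to 3. The mean was 3.38 ± 0.15 in A and 3.89 ± 0.19 in G (SD, n = 3), and the groups did not overlap. The difference of 0.51 was 0.42 to 0.61 when 1 library was left out. This ratio was not tested, because it combines genes whose values were already known.

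SLC3A2 has 23 listed transcripts, and 4 of them start at 62856102 to 62856168, upstream of the other 19. The upstream 4 together made up 71.7%, 57.5% and 71.1% of the summed transcript FPKM in A replicates 1 to 3. In G replicates 1 to 3 their share was 53.0%, 56.3% and 71.2%. The share varied by library within both groups and did not separate them. Of the 12 tested transcripts 0 were called, where 0.147% of all tested transcripts were. The transcript with the smallest p, ENST00000536981, had means of 6.45 ± 0.75 in A and 4.58 ± 0.091 FPKM in G (SD, n = 3, limma adjusted p = 0.58 over 29990 transcripts).

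SLC7A6, also called y+LAT2, is another light chain of SLC3A2, which exchanges cationic for neutral amino acids. Like SLC7A5 it is on chromosome 16 (ENSG00000103064, 68264516 to 68301823, plus strand). A replicates 1 to 3 had 4.21, 13.1 and 4.42 FPKM, and G replicates 1 to 3 had 4.04, 4.24 and 4.10 FPKM. A replicate 2 was thus 2.97 times the next highest library, and a single library stood at least that far from the other 5 in 1.57% of all tested genes. Its log2 change was -0.52 ± 0.38 (SE, limma adjusted p = 0.51). Without A replicate 2 it was -0.05 ± 0.071 (SE), with a 95% interval of -0.23 to 0.13 and an adjusted p of 0.79. The other 5 libraries lay between 4.04 and 4.42 FPKM.

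In that library the excess sat in 1 transcript. ENST00000219343, a protein-coding isoform, was at 14.2 FPKM in A replicate 2 and at 0.99 and 0.65 FPKM in A replicates 1 and 3. It was at 0.65 to 0.86 FPKM in the G libraries. ENST00000648130, annotated as a target of nonsense-mediated decay, was at 1.72 FPKM in A replicate 2 and at 3.52 to 4.58 FPKM in the other 5 libraries. The gene as a whole held 2283 read-pair equivalents in A replicate 2 and 650 to 725 in the others. SLC7A6OS, which overlaps it on the opposite strand, was at 2.03 FPKM in A replicate 2 and at 2.75 to 3.67 FPKM elsewhere, and with both genes summed the locus still held 2527 read-pair equivalents in A replicate 2, against 967 to 1115. The strand setting of the counting is not given, so reads of these overlapping genes cannot be told apart with certainty. Why this library differs was not tested.

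SLC1A5, also called ASCT2, exchanges glutamine and other neutral amino acids. The gene is on chromosome 19 (ENSG00000105281, 46774883 to 46788594, minus strand). Its levels were 57.4, 60.97 and 35.0 FPKM in A replicates 1 to 3 and 50.5, 52.8 and 50.5 FPKM in G replicates 1 to 3. The G libraries lay between A replicate 3 and the other A libraries. The means were 51.1 ± 14.05 and 51.3 ± 1.31 FPKM (SD, n = 3). The log2 change was 0.04 ± 0.20 (SE), with a 95% interval of -0.44 to 0.53 (limma adjusted p = 0.93). A replicate 3 decided its sign. Without that library the log2 change was -0.20 ± 0.061 (SE), still not called (adjusted p = 0.39). A single library stood at least as far from the rest as here in 8.94% of tested genes. Its main transcript, ENST00000542575, followed the gene, at 36.8 FPKM in A replicate 3 and 50.0 to 66.6 FPKM in the others.

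SLC1A4, or ASCT1, exchanges alanine, serine and cysteine. The gene is on chromosome 2 (ENSG00000115902, 64988477 to 65023865, plus strand). Its levels were 0.67, 0.47 and 0.48 FPKM in A replicates 1 to 3 and 0.61, 0.59 and 0.69 FPKM in G replicates 1 to 3, with overlapping groups. At 66 to 112 read-pair equivalents per library it stayed below the filter and was not tested. SLC1A5 was therefore the main carrier mRNA of this pair in all 6 libraries. The transcript ENST00000234256, the most abundant of SLC1A4, was at 0.16 FPKM in A replicate 1 and at 0.69 to 1.03 FPKM in the others. The retained-intron transcript ENST00000480594 was at 0.67 FPKM in A replicate 1 and at 0.016 to 0.18 FPKM in the others.

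SLC38A1, or SNAT1, imports glutamine with sodium. It lies on chromosome 12 (ENSG00000111371, 46183063 to 46270017, minus strand), and SLC38A2 follows on the same strand at 46358188 to 46372773 (ENSG00000134294). SLC38A1 was at 17.1, 14.98 and 16.7 FPKM in A replicates 1 to 3 and at 19.3, 18.3 and 18.9 FPKM in G replicates 1 to 3. All G libraries lay above all A libraries. The means were 16.3 ± 1.12 and 18.8 ± 0.50 FPKM (SD, n = 3). G was higher by 0.20 ± 0.065 (SE) in log2, with a 95% interval of 0.04 to 0.36. This gene was not called (limma adjusted p = 0.221), with an adjusted p between 0.095 and 0.45 over the other settings. The log2 change was 0.15 to 0.24 when 1 library was left out.

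Among the 11 transcripts of SLC38A1, ENST00000398637 was the most abundant and repeated the pattern of the gene, at 18.3 to 20.6 FPKM in A and at 23.3 FPKM in the highest G library, with all G above all A (limma adjusted p = 0.68 over all transcripts). A minor coding isoform, ENST00000549049, was at 0.64, 0.43 and 0.91 FPKM in A replicates 1 to 3 and was listed without an estimate in the 3 G libraries. It stayed below the filter and was not tested here. Other untested coding isoforms of SLC38A1 went the other way. ENST00000546893 was at 0.34 to 0.66 FPKM in A and 0.95 to 1.26 FPKM in G. ENST00000439706 was at 0.007 FPKM or less in A and at 0.08 to 0.14 FPKM in G. The authors' deposited table marks ENST00000549049 as significant. That table marks 2 of the 98 transcripts of the 10 genes, where it marks 0.796% of all transcripts, and the other is ENST00000219343 of SLC7A6. The latter has a q of 0.554 in the authors' deposited table, so its mark does not follow the q-value, and its high value is in A replicate 2 alone. At gene level it marks 0 of the 10, where it marks 0.367% of all genes.

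SLC38A2, or SNAT2, is the sodium-coupled carrier that cells make more of when amino acids are scarce. Its levels were 20.7, 18.9 and 20.3 FPKM in A replicates 1 to 3 and 22.4, 19.8 and 22.1 FPKM in G replicates 1 to 3. G replicate 2 lay within the A range. The log2 change was 0.10 ± 0.069 (SE), with a 95% interval of -0.07 to 0.26 (limma adjusted p = 0.51). Its most abundant listed transcript, ENST00000551374, starts inside the gene and was at 24.6 to 24.9 FPKM in A and 23.4 to 28.0 FPKM in G. In A replicate 1 the transcript ENST00000549258, annotated for nonsense-mediated decay, had no estimate, against 8.77 to 10.7 FPKM in the other libraries. The full-length coding transcript ENST00000256689 was at 12.9 FPKM there and at 2.59 to 3.26 FPKM elsewhere. The gene value of A replicate 1 was within the range of the others. ENST00000548870, a processed transcript, was lower in each A library (0.51 to 0.77 FPKM) than in each G library (1.23 to 2.54 FPKM) and had the smallest p of the 26 tested transcripts (adjusted p = 0.53).

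**Figure D3:**
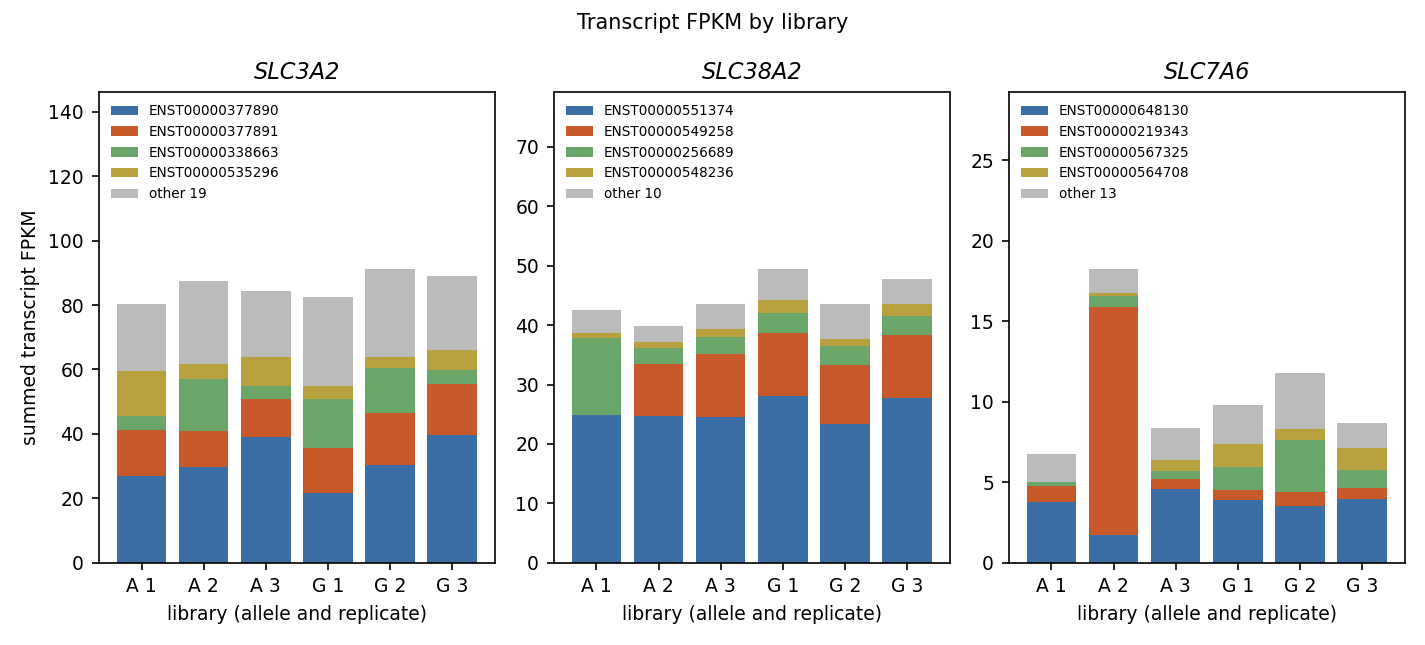
Transcript FPKM of SLC3A2, SLC38A2 and SLC7A6 in the 6 libraries (A or G allele and replicate number), stacked by transcript: the 4 most abundant of each gene in colour and the rest in grey. In A 1 the SLC38A2 share of ENST00000549258 is replaced by ENST00000256689, and in A 2 the SLC7A6 column is raised by ENST00000219343, at 14.2 FPKM.

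Of the 26 tested transcripts of the 10 genes 0 were called, where 0.147% of all tested transcripts were called. The count over all transcripts, 44, was 0 to 47 over the other settings, while that of the 10 genes stayed at 0. At an unadjusted p under 0.05, 5 of the 26 passed, where 7.81% of all tested transcripts did. Transcripts of a gene share its reads and are not independent of one another.

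SLC7A1, or CAT-1, is the widespread carrier of arginine and lysine. It lies on chromosome 13 (ENSG00000139514, 29509414 to 29595688, minus strand). Its levels were 7.95, 7.52 and 7.21 FPKM in A replicates 1 to 3 and 8.78, 7.65 and 8.26 FPKM in G replicates 1 to 3. G replicate 2 lay within the A range. The log2 change was 0.11 ± 0.071 (SE), with a 95% interval of -0.06 to 0.28 (limma adjusted p = 0.47). ENST00000380752 was nearly its only transcript, with 93.5% to 99.6% of the summed transcript FPKM.

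The related carrier SLC7A2, or CAT-2, was at 0.59, 0.48 and 0.52 FPKM in A replicates 1 to 3 and at 0.90, 0.76 and 0.81 FPKM in G replicates 1 to 3. Every G library was above every A library, and the ratio of the means, 1.549, was the highest of the 10 genes. The values rest on 82 to 153 read-pair equivalents per library. Being under 1 FPKM everywhere it was not tested. In a fit without a filter on low values its log2 change was 0.25, with a limma adjusted p of 0.41. That scale understates it: with a pseudocount of 0.01 in place of 1 the log2 difference was 0.62.

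SLC43A1, or LAT3, is a facilitator of branched-chain amino acids that needs no heavy chain. It lies on chromosome 11 (ENSG00000149150, 57484534 to 57515780, minus strand). Its levels were 0.82, 0.56 and 0.72 FPKM in A replicates 1 to 3 and 0.76, 0.74 and 0.81 FPKM in G replicates 1 to 3. The groups overlapped, at 46 to 66 read-pair equivalents per library, and the gene was not tested.

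SLC7A2 was left out of the search for motifs. For the other 9 of the 10 genes 16 RefSeq windows were taken. These windows have 300 bases, from 250 before to 50 after an annotated start. They were searched on both strands for 4 motifs, none of whose matches in these windows overlapped a match of another: the C/EBP-ATF element TGATGNAA, to which ATF4 binds with its partners, the E-box CACGTG, the forkhead core TAAACA, and TTTGAA, the core of the CHR element through which FOXM1 and its partners reach mitotic promoters. The C/EBP-ATF element was in 5 of the 16 windows, from 5 genes, and in 3.62% of the 34943 windows of all genes. The E-box was in 3 windows (7.23% of all), the forkhead core in 4 (12.3%) and TTTGAA in 3 (15.2%). A match is only a run of letters and does not show that a factor binds. The matches to TGATGNAA are shown because ATF4, whose list is described next, binds that element. Each line is 30 bases of GRCh38.p14, 5′ to 3′ in the direction of transcription, with the match in capitals. The lines are at chr11:62881719-62881748 (plus), chr19:46784893-46784922 (minus), chr2:64989381-64989410 (plus), chr13:29595663-29595692 (minus) and chr12:46266502-46266531 (minus), in that order. On SLC3A2 and SLC1A4 the element reads on the opposite strand.
SLC3A2: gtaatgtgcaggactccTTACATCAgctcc
SLC1A5: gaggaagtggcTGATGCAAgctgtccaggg
SLC1A4: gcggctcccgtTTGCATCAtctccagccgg
SLC7A1: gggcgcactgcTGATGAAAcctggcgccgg
SLC38A1: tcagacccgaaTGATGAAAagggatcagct

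The forkhead cores are shown because the overexpressed factor is a forkhead protein. They lie at chr19:46785023-46785052 (minus), chr2:64988251-64988280 (plus), chr12:46266737-46266766 (minus) and chr11:57514915-57514944 (minus).
SLC1A5: agggtagccttgTAAACAcagatgcatatt
SLC1A4: taaaagatgaaaTAAACAggaaatccatag
SLC38A1: caaTAAACAttttctacagagggcttactg
SLC43A1: ccctccctttggTAAACAcacccgcccgcc

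None of these 4 forkhead windows begins at the start of the gene's most abundant deposited transcript. For SLC38A1 the nearest window lies 1025 bases downstream of that start, so the promoter of its main transcript was not among the sequences searched. The TGATGNAA windows of SLC1A4 and SLC7A1 do begin at that start, and those of SLC3A2, SLC1A5 and SLC38A1 do not. SLC7A5, SLC7A6, SLC38A2 and SLC43A1 had no TGATGNAA in their windows. Of the 5 genes with the element, SLC3A2, SLC1A5, SLC7A1 and SLC38A1 were tested. Their log2 changes were -0.01, 0.04, 0.11 and 0.20, with 0 called, where 0.109% of all tested genes were.

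The ATF4 response was read from a list of 25 genes, of which 24 were tested. The list holds ATF4, known targets, and EIF2AK4, a kinase that acts upstream of ATF4 and is not a target. EIF2AK4 had a log2 change of 0.07. Of the 24, 18 were negative on the log2 scale and 6 positive, and the median was -0.12. By limma 0 were called, where 0.109% of all tested genes were. Over all tested genes 55.1% were positive. At an unadjusted p under 0.05, 7 of the 24 were lower and 2 higher, where 6.82% and 10.5% of all tested genes were. ATF4 itself was at 131.2, 131.9 and 132.5 FPKM in A replicates 1 to 3 and at 117.7, 116.5 and 112.6 FPKM in G replicates 1 to 3. The G libraries were all below the A libraries, with a log2 change of -0.19 ± 0.041 (SE, limma adjusted p = 0.165). DDIT4, an inhibitor of mTORC1 signalling that hypoxia and stress also raise, was higher in G, at 203.8 ± 9.40 and 248.6 ± 7.34 FPKM (SD, n = 3, adjusted p = 0.148). It alone in the list passed with quantile normalization. STC2, a secreted glycoprotein, was at 17.3 ± 0.66 and 20.6 ± 0.27 FPKM (adjusted p = 0.165). Scaled to equal sums, the libraries gave the list a median of -0.02 and 11 of 24 positive, beside a median of 0.11 over all genes.

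Of 42 other plasma membrane and lysosomal amino acid transporters only 15 were tested, and 0 were called, where 0.109% of all tested genes were. Of the 15, 6 were positive on the log2 scale, where 55.1% of all tested genes were, and the median was -0.03. All G libraries lay above all A libraries for 1 of the 15 and below them for 1, where 15.4% and 9.57% of all tested genes did so. SLC6A9, the glycine carrier GLYT1, had means of 7.58 ± 0.33 in A and 6.07 ± 0.39 FPKM in G (SD, n = 3, limma adjusted p = 0.184), with no overlap. SLC7A11, the cystine and glutamate exchanger that also pairs with SLC3A2, was at 3.196 ± 0.35 and 3.73 ± 0.16 FPKM (adjusted p = 0.34), and its groups did not overlap either. SLC1A3, a glutamate carrier, was at 1.20 ± 0.16 and 1.85 ± 0.59 FPKM (adjusted p = 0.35).

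**Figure D4:**
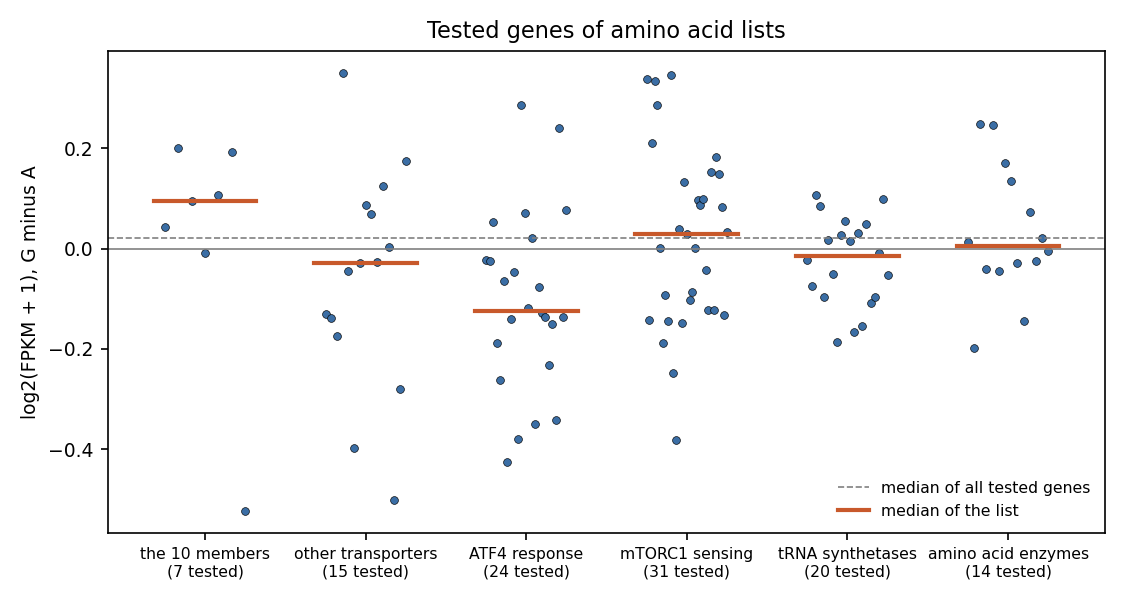
Difference of G minus A in log2(FPKM + 1) for each tested gene (points) of 6 lists, with the number tested under each name, the median of each list (orange bars) and the median of all tested genes (dashed line). The transporters' median (0.10) is the highest and the median of the ATF4 list (-0.12) the lowest. Of the plotted genes 0 were called, where 0.109% of all tested genes were.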

How the data were processed

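Poly(A) RNA of 6 PC9 libraries was sequenced as read pairs. The authors deposited FPKM per gene and per transcript, and the submitters' processing notes list StringTie 1.3.4d, HISAT2 2.0.4 and cutadapt 1.9. A mouse build stands in those notes, whereas the deposited tables hold human identifiers. Gene positions are printed as the deposited transcript table gives them. A RefSeq start site on GRCh38.p14 equals the start of the most abundant deposited transcript for 5 of the 9 genes compared, SLC7A2 being left out. The authors' strand setting and annotation release were not stated. The deposited tables also hold the authors' fold ratio, its log2 value, and their p-value and q-value, from a test that the sources used here do not name.

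A value of 0.0001 FPKM stands for no estimate. Depth was estimated from the step that 1 read pair makes in single-exon genes over 400 bases, sought only between 15000000 and 30000000 read pairs. Of the low values 26.4% to 28.3% were whole multiples within 0.02 read pairs, so whole reads could not be had and counts were not modelled. Read-pair equivalents are FPKM times length times that depth, summed over transcripts, and are approximate. Gene and transcript FPKM use different lengths and are compared only within a table.

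Values were tested as log2(FPKM + 1) with limma 3.58.1 (limma-trend, R 4.3.3) over all genes or transcripts that passed the filter, with Python 3.11.15 and pandas 2.3.3 for the tables. The fit was tested on simulated data with larger changes than those of the 10 genes. That test does not show how well changes as small as these would be found. The 10 genes and the lists were chosen with earlier results of these data known. Named were all 10 genes, called genes and the 3 genes with the smallest p in each list, the main transcript of each gene, and overlapping or copied genes. Other transcripts were chosen after their values were seen. Protein sequences were not used here.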

Additional observations from a re-analysis of the deposited data

How the results depend on the processing

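None of the 10 genes and none of their tested transcripts was called under the 16 alternatives, which changed the pseudocount, filter, scaling, variance model, replicate block or set of libraries; the 3 genes below 1 FPKM were tested only without a filter. The count of called genes over all genes was 14 as reported, 1 when low values were kept, 9 with median-ratio factors, 6 with quantile normalization and 4 without a variance trend, and it was 5 to 20 when 1 library was left out. Over all transcripts it moved by over 1.5 times in 10 of 16 alternatives, from 44 to 0 with a pseudocount of 0.01 or the replicate block, 2 with 1 FPKM required in all libraries and 7 without A replicate 3. The causes were not tested. The log2 change of SLC3A2 turned positive with equal sums per library (0.10), quantile normalization (0.0143) and array weights (0.0037), and was -0.0487 to 0.0508 when 1 library was left out. That of SLC1A5 was -0.20 to 0.19 when 1 library was left out. With the replicate number as a block the count over all genes was 0, with 2148 at an unadjusted p under 0.05, and SLC7A5 and SLC38A1 had limma adjusted p values of 0.26 and 0.27. Same-numbered libraries correlated at 0.073, 0.015 and 0.040 in their deviations from the group means, none above 0.1, so the numbers were not taken as pairs. As a weak hint from the data, 5 of 6 libraries correlated best with their own number. Each correlation counts for an A and a G library, so these are not 6 separate results. A shared batch was not tested. The 3 libraries per allele and the read pairs of the scarce genes limit what could be detected.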

Other observations

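Of 34 genes of amino acid sensing by mTORC1, 31 were tested and 0 were called by limma, where 0.109% of all tested genes were. At an unadjusted p under 0.05, 3 were higher and 1 was lower in G, where 10.5% and 6.82% of all tested genes were. BMT2, which encodes the methionine sensor SAMTOR, had means of 3.25 ± 0.19 in A and 4.37 ± 0.12 FPKM in G (SD, n = 3, adjusted p = 0.159). FLCN, which acts on the Rag GTPases, was at 3.29 ± 0.39 and 4.41 ± 0.29 FPKM (adjusted p = 0.195). LAMTOR5, a subunit of the lysosomal Ragulator scaffold, was at 35.3 ± 2.65 and 26.97 ± 3.30 FPKM (adjusted p = 0.190). In the deposited scale the median of the sensing genes was 0.03, beside 0.02 over all tested genes. With quantile normalization it was -0.01, beside 0.0008 over all tested genes.

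All 20 cytosolic aminoacyl-tRNA synthetases were tested, 0 were called, and 9 had a positive log2 change. Of all tested genes 0.109% were called and 55.1% were positive. HARS, MARS and SARS, which charge tRNAs with histidine, methionine and serine, had the smallest p values, with log2 changes of -0.19, -0.17 and -0.11 (limma adjusted p = 0.22, 0.27 and 0.34). Among 14 tested enzymes of glutamine, branched-chain and arginine metabolism 0 were called and 7 were positive, beside those same shares of all tested genes. ASS1, which makes argininosuccinate on the way to arginine, was at 103.9 ± 2.99 and 90.4 ± 1.15 FPKM (SD, n = 3, adjusted p = 0.165). BCAT1, a branched-chain aminotransferase, was at 3.72 ± 0.155 and 4.60 ± 0.118 FPKM (adjusted p = 0.184), and DBT, of the branched-chain dehydrogenase, at 2.05 ± 0.025 and 2.43 ± 0.013 FPKM (adjusted p = 0.26).

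SLC6A6, the taurine carrier, was named after its values were seen. It was at 36.5 to 40.6 FPKM in the A libraries and at 44.5, 45.9 and 9.18 FPKM in G replicates 1 to 3. A single library stood at least that far from the other 5 in 0.938% of tested genes.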
